A study of Homo sapiens with 4 samples.

Results

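miR-21 is a single hairpin that gives 2 mature microRNAs, miR-21-5p (listed as hsa-miR-21-5p) and miR-21-3p (hsa-miR-21-3p), and both were followed by name through 4 small RNA libraries of colorectal cancer cells. They are 2 of 2080 mature miRNA names listed in at least 1 of the libraries and of 1882 names listed in all 4. HT29 and HCT15, established human colorectal adenocarcinoma lines, were each sampled as parental cells and as spheres, with 1 library per line and culture and no replicate. HT29 parental cells grew in DMEM and HCT15 parental cells in RPMI, both with 10% fetal bovine serum. Spheres of both lines grew in DMEM-F12 with N2 Plus Supplement, bFGF at 10 ng/ml and EGF at 10 ng/ml, and the submitters call them sphere-derived cancer stem cells. The labels name no other treatment or modification, and both cultures of a line received penicillin and streptomycin.

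A miRNA hairpin is cut into a duplex of its 5' arm and its 3' arm, one of which is usually kept by an Argonaute protein as the guide while the other is mostly discarded. The guide finds messenger RNAs through its seed, bases 2 to 8, and lowers their output. miR-21-5p, the guide arm of its hairpin, is abundant in many carcinomas, is induced by STAT3, AP-1 and NF-kB signalling, and represses the tumour suppressor PDCD4. miR-21-3p is the arm usually discarded. Being so abundant, miR-21-5p also takes a large part of the reads of a library, which lowers the per-million value of every other miRNA.

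The sequence of miR-21-5p is shown with that of the other human miRNA that has the same seed in the RefSeq table used here. Of 2370 mature names in that table, miR-21-5p and miR-590-5p were the only ones with this seed, printed in capitals.
miR-21-5p: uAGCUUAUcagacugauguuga
miR-590-5p: gAGCUUAUucauaaaagugcag
Outside the seed the sequences differ: counted from the first base, 8 of 22 positions are identical, 7 of them the seed. The MIR21 hairpin lies on chromosome 17 from 59841266 to 59841337 on the plus strand of GRCh38, with miR-21-5p at 59841273 to 59841294. In GENCODE 29 it lies inside the gene VMP1, in an exon of the transcript VMP1-216, which is annotated as a retained intron. MIR590 gives miR-590-5p at 74191213 to 74191234 on the plus strand of chromosome 7.

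Values are given below as RPM, reads or read equivalents per-million of the listed total. Listed reads totalled 5806540 in the parental library of HT29 and 12794274 in its sphere library, and read equivalents inferred from the HCT15 RPKM values totalled 3190021 and 2325439. A listed 0 allows up to 3 reads, which is 0.234 to 1.29 RPM in these libraries. Of 6 epithelial markers named for these cells (miR-192-5p, miR-194-5p, miR-215, miR-200c-3p, miR-141-3p and miR-375), all had reads in all 4 libraries, with sums of 141900 RPM (parental) and 214179 RPM (spheres) for HT29 and of 17166 RPM and 14757 RPM for HCT15. The members were uneven: miR-192-5p made up 92120 and 157860 RPM of the HT29 sums, and miR-375 10451 and 7538 RPM of the HCT15 sums. The lowest in HCT15, miR-194-5p, was at 81.5 and 77.4 RPM there.

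In each of the 4 libraries miR-21-5p ranked first, and its share was higher in the spheres of each line. In HT29 parental cells it had 1011615 reads, or 17.4% of all listed reads (95% Clopper-Pearson interval 17.39% to 17.45%), so that 1 read in 5.74 was miR-21-5p. In HT29 spheres it had 3100334 reads, or 24.2% (24.21% to 24.26%), 1 read in 4.13. In HCT15 parental cells its deposited RPKM of 48010.3 corresponded to about 296580 reads and 9.30% of the listed total (9.27% to 9.33%). In HCT15 spheres an RPKM of 77446.3 corresponded to about 293986 reads and 12.6% (12.60% to 12.69%). The share was thus 1.39-fold higher in spheres of HT29 and 1.36-fold higher in spheres of HCT15, or 6.81 and 3.35 percentage points. These intervals cover counting error only, since each line and culture had 1 library, and no difference within a line has a replicate check. As reads carry no molecular identifiers, the intervals count reads and not molecules. In bulk RNA such as this, a lower share of cells with a miRNA and less of it per cell cannot be told apart.

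**Figure D1:**
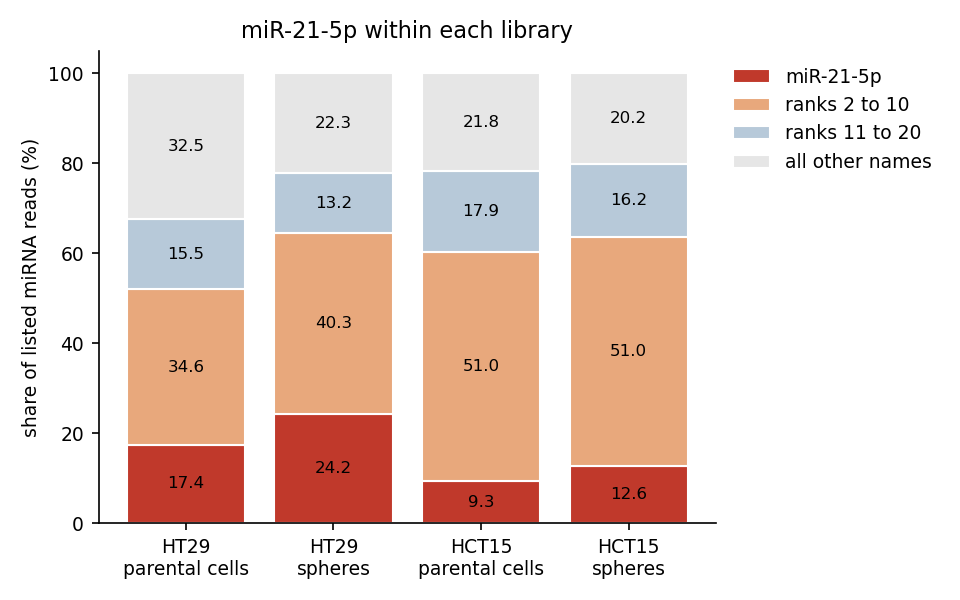
Share of listed miRNA reads in each library (percent, stacked bars to 100%), for miR-21-5p, the miRNAs ranked 2 to 10, those ranked 11 to 20 and all other names. miR-21-5p takes 17.4% (parental) and 24.2% (spheres) of HT29, and 9.30% and 12.6% of HCT15.

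How far miR-21-5p stood above the next miRNA differed between the lines. In HT29 it had 1.89 times the reads of miR-192-5p, a miRNA of intestinal epithelium, in parental cells and 1.54 times in spheres. In HCT15 it had 1.07 times the value of miR-10a-5p, a miRNA of the HOX gene loci, in parental cells and 1.12 times in spheres. The lead in HCT15 was thus narrow in both cultures. By its leading names the HT29 spheres library was the most concentrated of the 4. In it 4 names held 50% of the reads, against 10 in HT29 parental cells, 8 in HCT15 parental cells and 6 in HCT15 spheres. By the 20 leading names it was not: they held 77.7% there, 67.5% in HT29 parental cells, 78.2% in HCT15 parental cells and 79.8% in HCT15 spheres.

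The effective number of miRNAs, the inverse of the summed squared shares, is the number of equally abundant miRNAs that would give the same concentration. It was 18.7 for parental cells and 10.4 for spheres of HT29, and 29.5 and 15.5 with both miR-21 arms left out. Most of the concentration of HT29 libraries therefore came from this miRNA, but spheres were also the more concentrated without it. In HCT15 the effective number was 22.4 and 17.5, and 22.3 and 18.1 without miR-21. miR-21-5p made up 56.8% (parental) and 61.3% (spheres) of the summed squared shares in HT29, and 19.3% and 27.96% in HCT15.

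The miR-21-3p arm was scarce in HT29 and abundant in HCT15. It had 1282 reads in HT29 parental cells, 221 RPM or 0.0221% of the library (0.0209% to 0.0233%), and ranked 149 of 1921 names. In HT29 spheres it had 3427 reads, 268 RPM or 0.0268% (0.0259% to 0.0277%), and ranked 128. In HCT15 parental cells an RPKM of 6728.8 gave 13030 RPM, or 1.30% (1.29% to 1.32%), and rank 16 of 2041. In HCT15 spheres an RPKM of 7197.4 gave 11749 RPM, or 1.17% (1.16% to 1.19%), and rank 18. Over the names listed in all 4 files, its share was 58.7-fold higher in HCT15 than in HT29 as parental cells and 43.5-fold higher as spheres. For miR-21-5p the order of the lines was the opposite, with a share 1.88-fold higher in HT29 as parental cells and 1.93-fold higher as spheres. The share of miR-21-3p was higher in spheres of HT29, at 1.21 times the parental share, and lower in spheres of HCT15, at 0.902 times.

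The ratio of the arms needs no scaling between libraries. In HT29 there were 789 miR-21-5p reads for each miR-21-3p read in parental cells (interval 747 to 834) and 905 in spheres (875 to 936). In HCT15 there were 7.14 in parental cells (7.06 to 7.21) and 10.8 in spheres (10.6 to 10.9). The HCT15 intervals leave out that the RPKM of 1 read differed slightly with the length of the miRNA. Put as a share of both arms, miR-21-3p was 0.127% (parental) and 0.110% (spheres) in HT29, and 12.3% and 8.50% in HCT15. In both lines the spheres had the more unequal arms, by a log2 difference of 0.20 in HT29 (exact conditional interval 0.10 to 0.29) and 0.59 in HCT15 (0.57 to 0.62).

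Other hairpins show how large these differences were for these libraries. Of the hairpins with both arms listed, those with at least 20 reads of each arm over the 2 libraries of a line were compared, 151 in HT29 and 96 in HCT15. In HT29 the arms of miR-21 were more unequal than those of 144 of the 150 other hairpins in parental cells and 141 in spheres, where the median hairpin had a 13.1-fold and a 14.9-fold difference between its arms. In HCT15 they were more unequal than those of 42 of 95 others in parental cells and 45 in spheres, near the median of 9.04-fold and 12.7-fold. Among the hairpins compared, miR-21 was thus one of the most one-sided in HT29 and an average one in HCT15. The minimum of 20 reads leaves out hairpins with a nearly absent arm, such as miR-10b and miR-182 in HT29. In HT29 parental cells these had 119632 and 109959 reads of the 5p arm, against 0 and 6 of the 3p arm. The difference between cultures was small beside that of other hairpins in HT29, where 135 had a larger absolute difference and the median absolute log2 difference was 0.77. In HCT15 41 hairpins had a larger one, and the median was 0.47.

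Between the lines, the 5p over 3p ratio of miR-21 was 111-fold higher in HT29 as parental cells and 84.1-fold higher as spheres. Of 83 hairpins that met the minimum in both lines, 64 as parental cells (77.1%) and 53 as spheres (63.9%) had arm ratios that differed over 2-fold between the lines, so unequal arms between these files were common. Only miR-22, miR-18a, miR-185 and miR-671 differed more than miR-21 as parental cells, and miR-22 and miR-671 as spheres. miR-22, a widely expressed miRNA, had 913 reads of its 5p arm and 5762 of its 3p arm in HT29 parental cells, and about 34.0 and 136556 in those of HCT15. The rarer arm had a larger share in HCT15 for 59 of the 83 hairpins as parental cells and 55 as spheres. Its median share was 2.96% in HT29 and 9.71% in HCT15 as parental cells, and 3.64% and 7.28% as spheres. The lines also differ in the unit of their files and possibly in how reads were assigned, so line and processing cannot be told apart here.

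**Figure D2:**
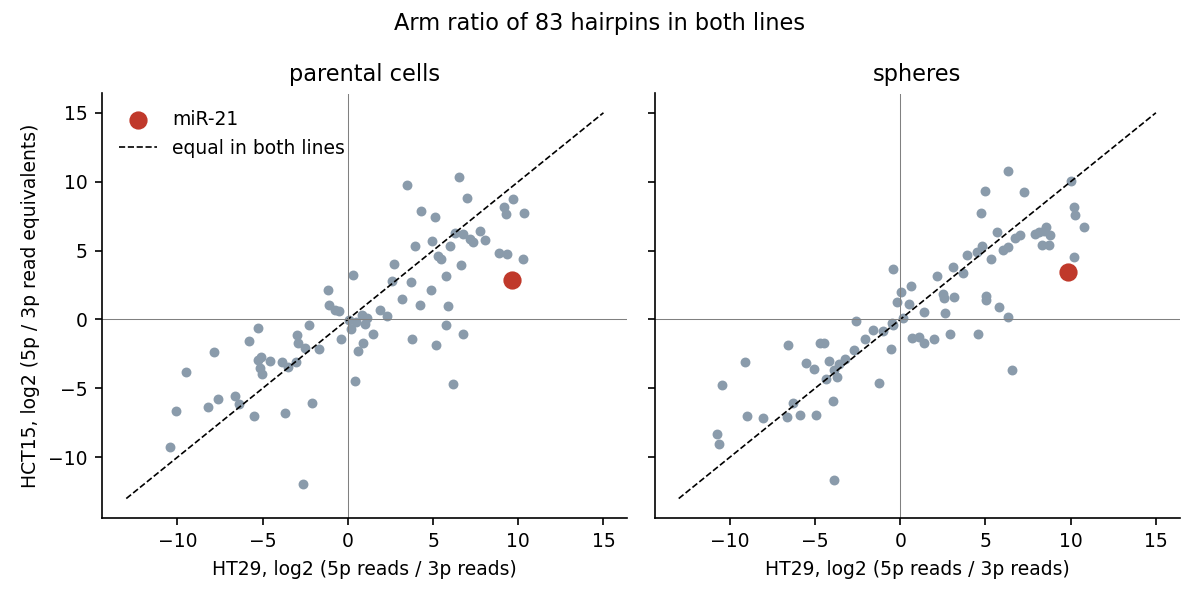
Log2 ratio of 5p to 3p reads in HT29 (x axis) and in HCT15 (y axis) for 83 hairpins, in parental cells (left) and spheres (right), each grey point a hairpin and the dashed line equality. miR-21, in red, lies below the line, at 9.62 in HT29 and 2.83 in HCT15 as parental cells.

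Among the 10 hairpins with the most reads, some other hairpins had a rarer second arm than miR-21 in both lines. In HT29 parental cells the rarer arm was 0.127% of both arms for miR-21. It was 0.0941% for miR-192, 0.0766% for let-7a, 0.118% for miR-191, 0.00546% for miR-182 and 0% for miR-10b. It was larger for miR-10a (0.776%), miR-148a (0.983%), miR-371a (7.03%) and miR-151a (11.6%). In HCT15 parental cells the 12.3% of miR-21 was exceeded among these 10 by the 23.3% of miR-151a. For let-7a, miR-10a and miR-191 in HCT15 parental cells the rarer arm was 0.473%, 0.225% and 0.229%. For miR-192, the 3p arm was listed at 0 in HCT15.

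Spheres were then compared with parental cells after scaling by TMM, a trimmed mean of log ratios that gives little weight to a few dominant miRNAs. The log2 ratio of miR-21-5p was 1.06 in HT29 (interval 1.056 to 1.062) and 0.80 in HCT15 (0.79 to 0.80). That of miR-21-3p was 0.86 in HT29 (0.77 to 0.96) and 0.20 in HCT15 (0.18 to 0.22). At least 2-fold higher in spheres by this scaling were 12.8% of 226 miRNAs with a mean of 50 RPM or more in HT29, miR-21-5p among them, and 4.39% of 205 in HCT15, where neither arm was. At least 2-fold lower were 19.5% and 1.95%. The median over these miRNAs was 0.01 in HT29 and 0.09 in HCT15.

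The size of the ratio depended on the scaling. Its order among miRNAs cannot, since a scaling moves all log2 ratios of a line by the same amount. Over 15 settings in HT29 the log2 ratio of miR-21-5p ran from 0.48 with total counts to 1.28 with the upper quartile. In 11 of the 15 it was 2-fold or more. It was under 2-fold with total counts, without both miR-21 arms (0.61), without the 10 most abundant miRNAs (0.79) and against reference miRNAs (0.91). Over 16 settings in HCT15 the log2 ratio of miR-21-5p ran from 0.44 to 1.05, and 2 put it at 2-fold or more. In both lines several settings gave nearly the same value as the main TMM scaling, so these counts are not of independent settings. The share of all miRNAs at least 2-fold higher was 13.3% in HT29 and 6.34% in HCT15 with DESeq2 size factors, and 17.3% and 7.8% with the upper quartile. All of these values were positive. For miR-21-3p in HT29 the range was 0.28 to 1.09. In HCT15 it was -0.15 to 0.46, with 12 of 16 settings positive, several of them at the main TMM value of 0.20. No direction therefore holds for that arm there. Free of scaling, the ratio of miR-21-5p exceeded that of 198 of 225 other miRNAs in HT29 and 192 of 204 in HCT15. The ratio of miR-21-3p exceeded 189 of 225 in HT29 and 119 of 204 in HCT15.

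**Figure D3:**
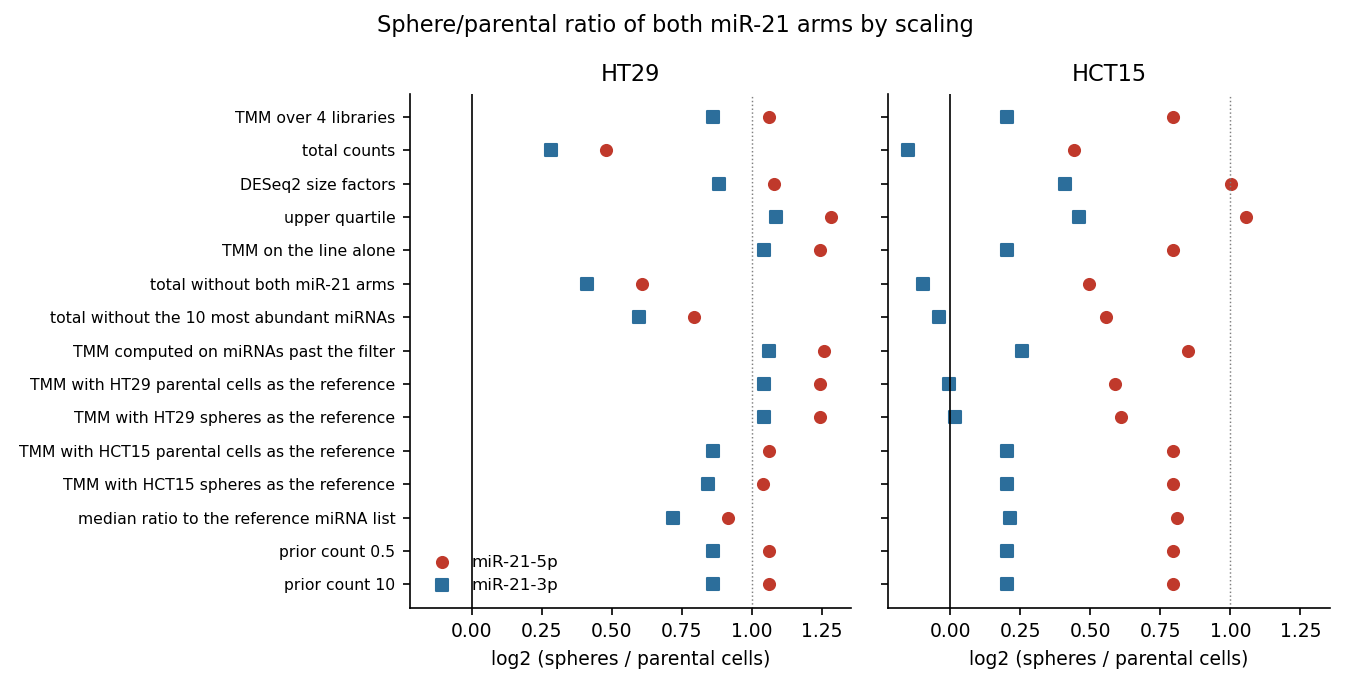
Log2 ratio of spheres to parental cells (x axis) of miR-21-5p (red circles) and miR-21-3p (blue squares) in HT29 and HCT15 under each scaling or prior count (y axis), with solid lines at equal levels and dotted lines at a 2-fold difference. miR-21-5p lies right of miR-21-3p in each setting, and miR-21-3p lies on both sides of 0 in HCT15.

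A ratio to single reference miRNAs, as used to scale PCR, also needs no library total. Of 6 such miRNAs (miR-16-5p, miR-191-5p, miR-103a-3p, miR-93-5p, miR-423-5p and let-7a-5p), miR-21-5p was higher in spheres relative to each of the 6 in both lines. In HT29 the log2 difference ran from 0.59 against let-7a-5p to 2.84 against miR-16-5p, with a median of 0.91. In HCT15 it ran from 0.38 against miR-103a-3p to 1.07 against let-7a-5p, with a median of 0.81. The choice of reference moved the HT29 value most through miR-16-5p, which went from 1826 to 354 RPM between parental cells and spheres of that line. In HCT15 miR-16-5p was at 5275 and 3468.

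Across both lines, with the lines as replicates, limma gave miR-21-5p a log2 fold change of 0.93 (SE 0.17) and an adjusted p of 0.472, higher in spheres of 2 of 2 lines. For miR-21-3p it gave 0.53 (SE 0.40) and an adjusted p of 0.760. Of 377 miRNAs tested by limma with Benjamini-Hochberg adjustment, 0 passed (0% called), and 21 had an unadjusted p under 0.05 (5.57%); edgeR on reads called 0 with 21 unadjusted, and DESeq2 on reads called 5. The call for miR-21-5p differed between scalings. With DESeq2 size factors limma passed it (1.04, adjusted p = 0.0352, 5 miRNAs called), and likewise with TMM computed on the 377 alone (1.05, adjusted p = 0.0148, 12 called). The degrees of freedom that limma borrows from all miRNAs were 9.05 and unlimited there, against 2.87 in the main fit. They were also unlimited without a filter on low values, where limma did not pass it (adjusted p = 0.792). In the passing fits miR-21-5p had a larger SE than in the main fit, 0.19 and 0.29. Over all limma, edgeR and DESeq2 fits its adjusted p ran from 0.0148 to 1.00, the highest without cell line in the fit.

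The next question was how far this miRNA alone moved the RPM of the rest. With both arms left out of the total, every other miRNA had an RPM 21.1% higher in parental cells of HT29 and 32.0% higher in its spheres. In HCT15 the corresponding rises were 11.9% and 16.0%. Since these differ between cultures, the log2 ratio of every other miRNA was 0.12 higher in HT29 (8.998% on a linear scale) and 0.05 higher in HCT15 (3.73%) once miR-21 was left out. Nearly all of it came from miR-21-5p, since leaving out miR-21-3p alone moved the log2 ratios by less than 0.01 in both lines.

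No other single miRNA moved the rest as much in either line. In HT29 the next was miR-192-5p at 0.11, followed by miR-151a-3p at 0.02. In HCT15 the next were miR-182-5p, a member of the miR-183 cluster, at 0.05, and miR-10a-5p at 0.04. In the other direction were miR-31-5p (-0.015) and miR-101-3p (-0.015) in HT29, and miR-371a-5p (-0.04) and miR-22-3p (-0.03) in HCT15. In HT29, 417 names had a higher share in spheres and 754 a lower one. The gains came to 18.9 percentage points in all, of which miR-21-5p made up 36.0% and miR-192-5p 6.57 points. In HCT15, 182 names had a higher share and 797 a lower one. There the gains came to 16.6 points in all, of which miR-21-5p made up 20.1%. Names above 0 numbered 975 in HCT15 parental cells and 578 in HCT15 spheres, against 1005 and 1090 in HT29.

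Set against the whole difference between total counts and TMM, which was 0.58 in HT29 and 0.35 in HCT15, leaving out miR-21 amounted to 21.5% and 14.99% of it. The 2 most abundant miRNAs of HT29, miR-21-5p and miR-192-5p, amounted to 0.29 together, the 10 most abundant to 0.44 and the 20 most abundant to 0.55. In HCT15 the 5 most abundant amounted to 0.20 and the 10 most abundant to 0.13. Leaving out miR-21-5p thus moved the other ratios more than leaving out any other single miRNA, but by much less than TMM did. Removals of successive miRNAs do not simply add up, so these percentages set sizes side by side and are not shares of a sum.

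**Figure D4:**
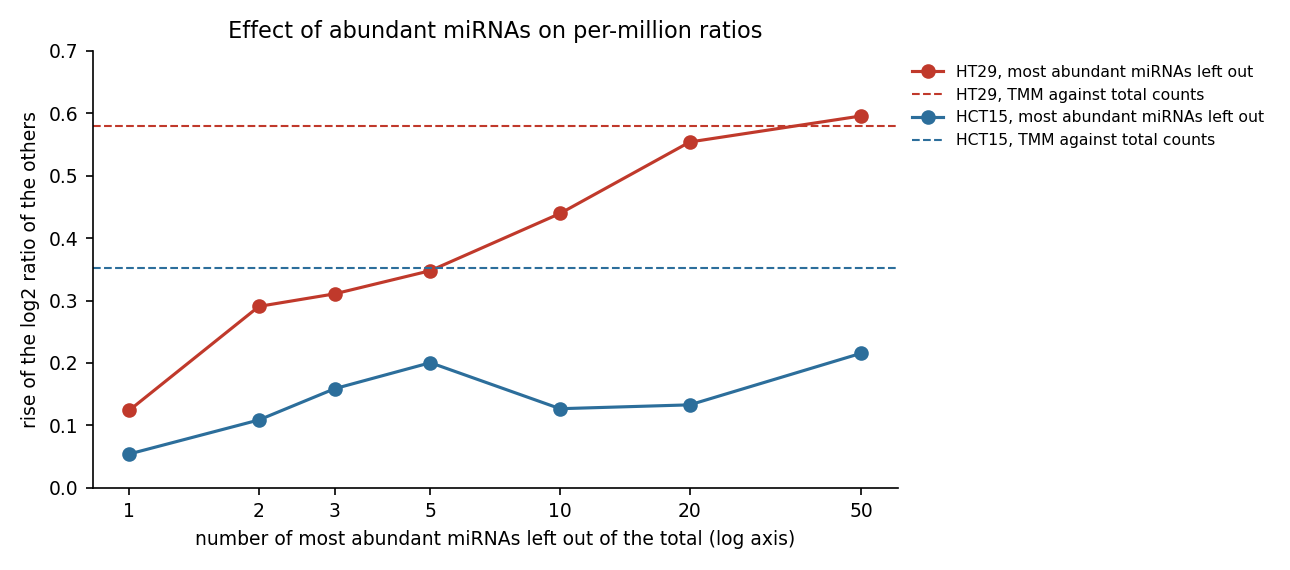
Rise of the log2 sphere/parental ratio of all other miRNAs (y axis) as the most abundant miRNAs of each line are left out of the total one after another (x axis, log scale), with dashed lines at the difference between TMM and total counts. Leaving out miR-21-5p alone gives 0.12 in HT29 and 0.05 in HCT15, below the dashed lines at 0.58 and 0.35.

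Few miRNAs changed direction or 2-fold call because of miR-21. Of 224 others with a mean of 50 RPM or more in HT29, 11 turned from lower to higher in spheres when miR-21 was left out of the total, and 13 changed their 2-fold call. Those at least 2-fold lower went from 74 to 64 and those at least 2-fold higher from 11 to 14. Of 203 others in HCT15, 9 turned and 7 changed their 2-fold call, with 21 and 14 at least 2-fold lower and 5 and 5 at least 2-fold higher. Counted with both arms, the share of miRNAs at least 2-fold higher by total counts was 4.87% in HT29 and 2.44% in HCT15, and at least 2-fold lower 32.7% and 10.2%. Without miR-21 in the total, 6.19% and 2.44% were at least 2-fold higher and 28.3% and 6.83% at least 2-fold lower. With TMM in place of total counts, 51 in HT29 and 52 in HCT15 changed direction.

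The most abundant of these were close to equality or to a 2-fold difference already. In HT29, let-7a-5p, a guide of the growth-restraining let-7 family, went from -0.11 to 0.01, miR-378a-3p from -0.10 to 0.02, miR-182-5p from -0.07 to 0.05 and miR-200a-3p, a miRNA of epithelial cells, from -0.10 to 0.02. There miR-130b-3p went from -1.11 to -0.99 and miR-106a-5p from -1.07 to -0.94. In HCT15, miR-26b-5p turned from -0.0044 to 0.05, miR-93-5p from -0.02 to 0.04, miR-200a-3p from -0.03 to 0.02 and miR-320b from -0.0025 to 0.05. There miR-371a-3p, of the embryonic miR-371 to miR-373 cluster, went from -1.01 to -0.96, and miR-140-3p from -0.04 to 0.01.

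Among 7 other miRNAs linked to NF-kB, STAT3 or AP-1, 0 of 7 passed the limma test, and the median log2 ratio was 0.59 in HT29 and 0.77 in HCT15. In both lines 6 of the 7 were above 0, as were 113 of 224 miRNAs other than miR-21 with a mean of 50 RPM or more in HT29 and 114 of 203 in HCT15. miR-146a-5p, a feedback inhibitor of NF-kB signalling, had 2.78 and 3.33, and miR-146b-5p, its paralog, 1.48 and 1.78, both above miR-21-5p. miR-221-3p had 0.59 and 0.77, miR-181b-5p 0.12 and 0.63, and miR-9-5p, at no more than 13.9 RPM, 0.45 and 1.06. miR-155-5p, a miRNA of activated immune cells, was at 47.5 and 57.8 RPM in HT29 (0.86) and at 1816 and 1334 in HCT15 (-0.09). miR-222-3p had -0.61 in HT29 and 0.28 in HCT15.

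Of 10 further miRNAs known as abundant in colorectal tumours, 0 of 10 passed the limma test. Their median was -0.45 in HT29, with 3 of 10 above 0, and 0.45 in HCT15, with 9 of 10 above 0, to be read against the same 113 of 224 and 114 of 203. In HT29 the ratio of miR-21-5p exceeded that of all 10, and miR-18a-5p (-1.63), miR-31-5p (-1.49) and miR-135b-5p (-1.88) were at least 2-fold lower in spheres. In HCT15 it exceeded 7 of 10; those above it were miR-182-5p (0.93), miR-31-5p (1.14) and miR-135b-5p (1.92). Besides miR-31-5p and miR-135b-5p, miR-17-5p, miR-18a-5p, miR-20a-5p and miR-96-5p also were below 0 in HT29 and above 0 in HCT15. In HCT15 the interval of miR-18a-5p, on about 139 and 98 reads, spanned 0 (-0.08 to 0.69). That of miR-224-5p did so too, on about 67 and 49 reads (-0.21 to 0.91). Of 148 miRNAs with a mean of 50 RPM or more in both lines, 66 (44.6%) had opposite signs by this scaling and 54 were above 0 in both, like miR-21-5p.

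miR-590-5p, which shares the seed of miR-21-5p shown above, was scarce beside it. In HT29 it was at 552 RPM in parental cells and 113 in spheres, a log2 ratio of -1.70 (interval -1.79 to -1.61), opposite to that of miR-21-5p. In HCT15 it had 3 reads, 0.940 RPM, in parental cells and was listed at 0 in spheres, both at or under the floor of 3 reads. Reads with this seed were therefore nearly all miR-21-5p in each library.

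The miRNAs with levels most like those of each arm were found over the 4 libraries among 238 others with a mean of 50 or more per-million, as a description. Likeness was the largest gap between log2 levels centred on each miRNA's own mean. Levels in this paragraph are per-million of the names listed in all 4 files, a slightly smaller total than that of the RPM above. Nearest to miR-21-5p were miR-30a-5p (0.32), miR-141-3p (0.40), miR-148b-3p (0.48), miR-532-5p (0.49) and miR-148b-5p (0.50). miR-30a-5p was at 16229 (parental) and 18132 (spheres) in HT29, and at 6475 and 7922 in HCT15. Nearest to miR-21-3p were miR-125b-5p (0.53), miR-155-5p (0.54), miR-22-3p (0.68), miR-3615 (0.69) and miR-148a-3p (0.85), which were all far higher in HCT15 than in HT29. miR-22-3p, for example, was at 1001 and 924 in HT29 and at 42981 and 23251 in HCT15.

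miR-21 is also abundant in fibroblasts and blood cells, so markers of other cells were read beside it. The 4 stromal markers summed to 6.72 RPM (parental) and 7.35 RPM (spheres) in HT29, and to 20.4 and 15.2 RPM in HCT15. miR-214-3p was listed at 0 in all 4 libraries, and miR-145-5p had 0.172 RPM in HT29 parental cells and 0 in the other 3. The 5 blood-cell markers summed to 402 and 376 in HT29, of which miR-142-3p made up 381 and 367, and to 2.85 and 1.74 in HCT15; miR-223-3p was listed at 0 in all 4. The endothelial marker miR-126-3p was at 132 and 147 in HT29 and at 12.2 and 8.6 in HCT15. The 3 muscle markers summed to 166 and 1159 in HT29, nearly all of it miR-1, and were listed at 0 in HCT15. These sums lie far below the levels of miR-21-5p, and apart from the muscle markers of HT29 the sums were close in both cultures or lower in spheres. With TMM scaling, the log2 ratio in HT29 was 1.24 for the stromal marker miR-143-3p (interval 0.57 to 2.02), on 22 and 78 reads, above the 1.06 of miR-21-5p. It was 0.53 for miR-142-3p, 0.73 for miR-126-3p and 3.39 for miR-1. Their part in the miR-21 ratios was not tested.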

How the data were processed

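Per the labels' protocols, total RNA was made into libraries using a TruSeq Small RNA kit. For HT29 the authors deposited raw counts of reads for each mature name, and for HCT15 they deposited RPKM, per the file headers, where miRBase R19 is named. The submitters' processing notes name the build hg19. The sources used here do not give the aligner or how shared reads were assigned. HCT15 read equivalents are RPKM over the value of 1 read for miRNAs of 22 bases, 0.162 in parental cells and 0.263 in spheres, where the commonest low value of 0.527 was taken as 2 reads. In parental cells that value was 0.157 for 20 bases and 0.164 for 23, so read equivalents of other lengths are approximate. Shares use the sum of all listed values. Sphere/parental log2 ratios used TMM scaling on 1882 shared names and a prior count of 2. Across lines, limma 3.58.1 (R 4.3.3) was fitted with its variance trend on log2(TMM-scaled RPM + 1), with a block for line, on miRNAs at 10 RPM or more in at least 2 libraries, with Benjamini-Hochberg adjustment over all 377 and a threshold of 0.05. It had 1 residual degree of freedom, from the spread between the 2 lines. To this, limma added 2.87 prior degrees of freedom, borrowed from the variance trend over all 377 miRNAs. The p-values therefore mix both and measure no spread between replicate cultures. edgeR 4.0.16 and DESeq2 1.42.0 on reads were alternatives. Only the limma fit was checked on simulated data, which held no difference between lines. Intervals came from scipy 1.17.1 in Python 3.11.15.

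The members, lists and rules were chosen with earlier results of these data known. Named were both arms, miRNAs with the same seed, the leading miRNAs per library, the 5 nearest in level to each arm, those whose removal moves the rest most, the 6 most abundant per line that changed direction or 2-fold call, the rarer arms of the 10 leading hairpins and list members. Sequences are from RefSeq (GRCh38.p14), which had 1 of the 2 arms; miR-21-3p was not matched. No coordinate was taken from or moved to hg19.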

Additional observations from a re-analysis of the deposited data

Results flagged for a closer look

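The share of miR-21-3p moved in opposite directions in the 2 lines. It was higher in spheres of HT29, with a log2 share ratio of 0.28, and lower in spheres of HCT15, at -0.15. The difference between the lines was not tested, and with TMM scaling both ratios were positive. Of 148 miRNAs with a mean of 50 RPM or more in both lines, 57 (38.5%) had shares that moved in opposite directions, so this is common among them.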

How the results depend on the processing

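The alternatives that compute TMM on filtered miRNAs or from each reference library, and the use of RPKM as deposited, were chosen after seeing the data. For the HT29 and HCT15 ratios of miR-21-5p the values were 0.48 and 0.44 with total counts, 1.08 and 1.00 with DESeq2 size factors, 1.28 and 1.05 with the upper quartile, 0.61 and 0.50 without both miR-21 arms, 0.79 and 0.55 without the 10 highest over all libraries, 1.26 and 0.85 with TMM on filtered miRNAs, and 0.91 and 0.81 against the reference list. TMM on the line alone gave 1.24 in HT29. With HT29 parental cells, HT29 spheres and HCT15 spheres as the TMM reference, HT29 gave 1.24, 1.24 and 1.04, and the first 2 gave 0.59 and 0.61 in HCT15. RPKM as deposited gave 0.69. For miR-21-3p in HT29 the same settings gave 0.28 with total counts, 1.09 with the upper quartile, 1.04 with TMM on the line alone, 0.41 without miR-21, 0.59 without the 10 most abundant, 1.06 with TMM on filtered miRNAs, 1.04 with either HT29 library as the reference and 0.72 against the reference list. In HCT15 miR-21-3p turned negative with total counts (-0.15), without miR-21 (-0.10), with the 10 most abundant left out (-0.038) and with HT29 parental cells as the reference (-0.0029). It was 0.41 with DESeq2 size factors, 0.46 with the upper quartile, 0.26 with TMM on filtered miRNAs, 0.017 with HT29 spheres as the reference and 0.10 as deposited RPKM. The cause of these shifts was not tested beyond what each scaling leaves out.

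The share of miR-21-5p, in the order HT29 parental, HT29 spheres, HCT15 parental, HCT15 spheres, was 17.6%, 24.5%, 9.33% and 12.7% over the names in all 4 files, and 27.5%, 41.7%, 20.4% and 27.1% without the 10 most abundant other miRNAs. Without entries under 10 RPM it was 24.3% in HT29 spheres. For miR-21-3p, leaving out these 10 gave 0.0348%, 0.0461%, 2.86% and 2.52%. The shift of the other miRNAs by miR-21, -0.12 in HT29 and -0.05 in HCT15, was -0.127 in HT29 over shared names, -0.0542 in HCT15 for miR-21-5p alone, and -0.30 and -0.11 for the 10 miRNAs highest over all 4 libraries. With no minimum level, 46 miRNAs in HT29 and 19 in HCT15 changed direction, because more were counted. With a minimum of 5, 20 or 100 reads per arm, miR-21 had the more unequal arms against 93.5% to 96.0% of other hairpins in HT29 and 44.2% to 51.6% in HCT15.

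Across lines, limma passed miR-21-5p with DESeq2 size factors (1.04) and with TMM on filtered miRNAs (1.05). Both fits also borrowed more degrees of freedom from all miRNAs than the main fit. The number of miRNAs called was 5 and 12 there, 7 without a filter on low values and 5 with DESeq2 on reads. Leaving out 1 line gave 0.80 to 1.06 for miR-21-5p and 0.20 to 0.86 for miR-21-3p, as values with no test. The labels give no replicate numbers; without a replicate block for cell line, limma gave 0.93 for miR-21-5p and 0.53 for miR-21-3p, and neither passed. Depth limits only the scarce names here, such as miR-590-5p in HCT15.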
